A study of Mus musculus with 12 samples.

Results

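Genes of programmed cell death and of the p53 response were followed in sorted cells of the embryonic mouse cerebral cortex. They were chosen by gene symbol: members of the BCL2 family, caspases, inhibitors of apoptosis, p53 and its regulators, the Gadd45, sestrin, cyclin G and BTG families, CDK inhibitors, TNF receptors, and TRAF and RIP adaptors, leaving out *Birc5* and *Cdkn1a*. The symbols matched 39 of the 4859 coding genes for which expression values were deposited. Of these, 37 were placed in such a family, among them *Casp8ap2*, *Cdkn2aip* and *Cdkn3* as partners or by symbol. The other genes, *Fastkd2* and *Trafd1*, matched by symbol and were placed in none. Bulk RNA-seq covered 12 libraries, 2 for each of 6 groups: Ebf2-EGFP+ and Ebf2-EGFP- cells sorted by FACS at 3 stages, E11.5, E13.5 and lastly E15.5. All cells, of both populations, came from embryos of the Tg(Ebf2-EGFP)FB58Gsat line, in which *Ebf2* regulatory sequence of a transgene drives EGFP, and each library pooled cells of several embryos. By the study's account the EGFP+ cells are mostly preplate neurons (subplate and Cajal-Retzius neurons) at E11.5 and mostly Cajal-Retzius neurons at E15.5. The EGFP- cells are mostly progenitors at E11.5 and include cortical plate neurons later.

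Apoptosis through mitochondria is set by the balance within the BCL2 family. BH3-only proteins such as PUMA and NOXA sense damage, anti-apoptotic proteins such as BCL2 and BCL-XL hold them in check, and BAK, BAX and BOK open the outer mitochondrial membrane, after which initiator and effector caspases cut the cell apart. The transcription factor p53, kept low by the ubiquitin ligase MDM2, switches on several BH3-only genes. It also switches on genes of stress responses and growth arrest, such as *Gadd45a*, *Sesn1*, *Ccng1* and *Btg2*. Many neurons made in the cortex die during development, and Cajal-Retzius neurons are a transient type of which most disappear after birth.

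*Bax*, *Mcl1*, *Casp9*, *Apaf1*, *Trp53*, *Mdm4*, *Cdkn1b* and *Fas*, among others, were not analysed here. The table used holds genes that the authors reported as differential. Calls are common in it: 97.4% of all listed genes, and 38 of the 39 members, were called in the comparison of the populations at 1 or more stages. Levels are FPKM and differences are log2 fold changes of EGFP+ against EGFP- cells on the scale log2(FPKM + 1), in which adding 1 shrinks the change of genes below about 1 FPKM. A gene was called at a limma adjusted p under 0.05, with Benjamini-Hochberg adjustment over all listed genes. The authors had picked the listed genes for differing in the same libraries, so the adjusted p-values are not those of an unselected set. The files used give no read count for each library, and FPKM summed over the listed genes lay between 111136 and 146703. Scaling the libraries by medians of ratios raised the median log2 fold change of all genes by 0.19 at E11.5 and E13.5 and by 0.13 at E15.5. Without it that median was -0.19, -0.19 and -0.11 at the 3 stages, so a member at 0 stood slightly above the median gene. The 39 members had a median level of 10.2 FPKM, against 7.75 for all listed genes, with means over the 12 libraries from 0.620 (*Casp8*) to 101 FPKM (*Trp53i11*).

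The populations differed in their markers of cell types. The summed level of 8 Cajal-Retzius markers was 295 to 320 FPKM in EGFP+ and 12.1 to 12.99 FPKM in EGFP- cells at E11.5, and 542 and 1163 FPKM in the E15.5 EGFP+ libraries. The sum of 6 cortical plate neuron markers was 145 to 188 FPKM in EGFP+ against 52.1 to 57.0 FPKM in EGFP- cells at E11.5. At E15.5 it was 523 to 745 against 559 to 618 FPKM, so that the populations overlapped. The sum of 5 cell cycle genes was 727 to 831 FPKM in EGFP- and 198 to 222 FPKM in EGFP+ cells at E11.5, and 116 to 181 against 47.2 to 51.0 FPKM at E15.5. The sum of 6 radial glia genes was 1295 to 1569 against 404 to 427 FPKM at E11.5 and 436 to 788 against 86.0 to 149 FPKM at E15.5. The sum of 6 interneuron and ganglionic eminence markers was 144 to 193 FPKM in EGFP- against 8.15 to 10.97 FPKM in EGFP+ cells at E11.5, and 74.2 to 85.03 against 2.55 to 3.38 FPKM at E15.5. That of 6 meningeal and fibroblast markers was 88.8 to 99.8 against 30.4 to 35.9 FPKM at E11.5 and at most 5.07 FPKM later. No marker of these 6 lists was at 0 in any library. The part of this makeup in the results on the members was not tested, and in sorted bulk RNA fewer cells with a transcript and less of it per cell cannot be told apart. Of 6 erythroid markers, 3 were listed, and their sum at E11.5 was 1205 to 2605 FPKM in EGFP- against 31.2 to 88.6 FPKM in EGFP+ cells.

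Start-site regions of the members were searched for the p53 decamer, the short unit that p53 response elements repeat. RefSeq windows of 300 bases, from 250 before to 50 after a start site on GRCm38.p6, were given for 33 members (44 windows) and were not given for members such as *Cdkn1c*, *Pmaip1*, *Ripk4*, *Tnfrsf22* and *Trp53inp1*. The decamer stood in the windows of *Ccng1*, *Gadd45a*, *Mdm2* and *Sesn1*, 9.09% of the members' windows, against 8.36% of all 32851 windows. All 4 are textbook p53 targets, so the stretches are shown here, 5′ to 3′ on the strand of the gene, with the decamer in capitals.
Ccng1: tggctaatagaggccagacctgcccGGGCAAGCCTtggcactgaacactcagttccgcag
Gadd45a: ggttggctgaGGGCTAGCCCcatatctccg
Mdm2: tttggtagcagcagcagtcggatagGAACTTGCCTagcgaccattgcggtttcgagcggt
Sesn1: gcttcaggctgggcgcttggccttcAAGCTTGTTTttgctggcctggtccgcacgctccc
The stretch of *Ccng1* is chr11:40755437-40755496 on the minus strand, and that of *Mdm2* is chr10:117710910-117710969 on the minus strand, both outside any GENCODE M21 gene. That of *Sesn1*, chr10:41887241-41887300 on the plus strand, lies in an intron of its longer transcripts. That of *Gadd45a*, chr6:67037428-67037457 on the minus strand, lies in the first exon that GENCODE draws. Both strands were searched, and a match is a description of letters, not of p53 binding. The E2F letters TTTCCCGC or TTTGGCGC, a site class of cell cycle genes, stood in the windows of *Casp8ap2* and *Traf4*, 4.55% of the members' windows against 1.56% of all windows.

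At E11.5, 14 members were higher and 12 lower in EGFP+ cells, with 13 not called. Of all listed genes 36.8% were called higher and 44.9% lower. All 26 calls were kept with any 1 library left out, and under the other scaling, pseudocount, variance and block settings wherever the gene was tested. The range of the members' log2 fold changes ran from -2.30 (*Bcl2l12*) to 1.90 (*Trp53inp1*). At E13.5, 11 members were higher and 15 lower, against 32.1% and 43.5% of all genes. Without EGFP+ replicate 1, EGFP- replicate 1 or EGFP- replicate 2 of that stage fewer members, and fewer of all listed genes, were called higher. With median-of-ratios scaling the members' split was 15 higher and 11 lower. Of all 4859 listed genes 1900 were then higher and 1752 lower, against 1559 and 2114 without that scaling. That scaling raised the E13.5 log2 fold changes of *Bcl2l1*, *Bid*, *Bok*, *Tnfrsf21*, *Trp53bp1*, *Trp53i11* and *Trp53inp2*, all already called higher, to between 0.66 and 0.89. At E15.5, 10 members were higher and 8 lower, against 25.8% and 31.6% of all genes. With the replicate pairs as a block the members' lower count was 13, adding *Casp8*, *Casp8ap2*, *Ccng2* and *Trp53i13* among others. Of all listed genes 1890 were then lower, against 1534 without the block. Without EGFP- replicate 1 of that stage fewer members, and fewer of all listed genes, were called lower. Without EGFP- replicate 2 fewer of both were called higher. Fitted on the compared groups alone, *Bcl2l1*, *Bid*, *Bok* and *Trp53bp1* were not called at E13.5 (adjusted p from 0.0616 to 0.115), nor *Casp6*, *Gadd45b*, *Mdm2*, *Tnfrsf19* and *Trp53i11* at E15.5 (adjusted p from 0.0587 to 0.118). The median log2 fold change of the members was -0.19, -0.11 and -0.14 at the 3 stages, near that of all genes.

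Only 7 members were called at all 3 stages, against 39.8% of all listed genes. *Bbc3*, *Tnfrsf21* and *Trp53i11* were higher in EGFP+ cells each time, as were 14.6% of all listed genes, and *Bcl2l12*, *Cdkn2c* and *Cdkn3* were lower each time, as were 21.8%. *Tnfrsf19* changed sides, lower at E11.5 and E13.5 and higher at E15.5, and *Pmaip1* was lower at E11.5 and higher at E15.5. Such calls in both directions were made for 7.78% of all listed genes. *Bad* was not called at any stage, but was higher at E11.5 with the pairs as a block (0.35, adjusted p = 0.0160), with median-of-ratios scaling (0.59, adjusted p = 0.00509) and on the compared groups alone (adjusted p = 0.0185). The 2 genes placed in no family, *Fastkd2* (2.14 to 8.29 FPKM) and *Trafd1* (15.46 to 41.9 FPKM), were lower and higher at E11.5. *Fastkd2* was also lower at E13.5. That call was lost without EGFP+ replicate 2 or EGFP- replicate 1 of that stage (-0.39 and -0.48).

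**Figure D1:**
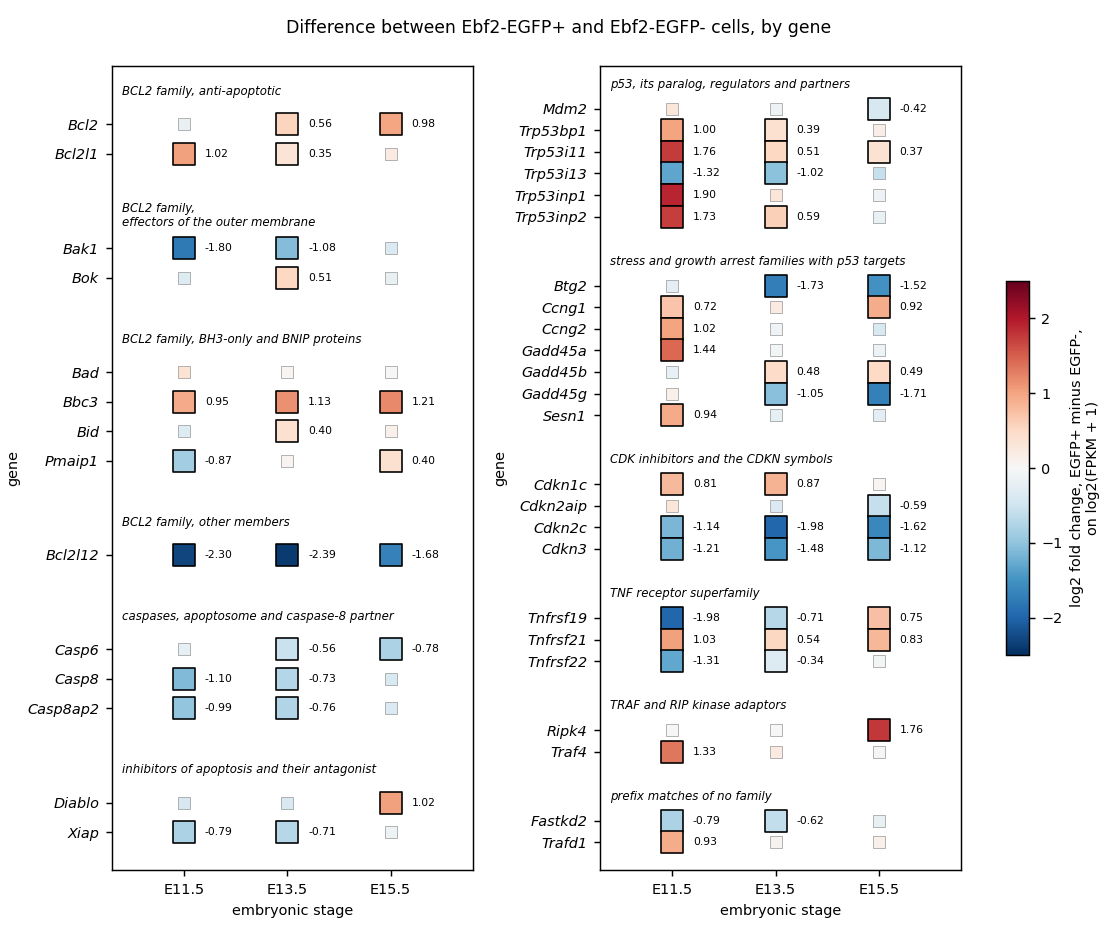
Log2 fold change of EGFP+ against EGFP- cells (colour, log2(FPKM + 1), 2 libraries a group) for the members by family at 3 stages. Large outlined squares with a value passed a limma adjusted p of 0.05, and small squares did not; the values run from -2.39 (*Bcl2l12*, E13.5) to 1.90 (*Trp53inp1*, E11.5). Under median-of-ratios scaling the E13.5 squares of *Casp6*, *Xiap*, *Fastkd2* and *Tnfrsf19* and the E15.5 square of *Mdm2* were not called.

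The anti-apoptotic pair moved at different stages. *Bcl2l1*, which encodes BCL-XL (chromosome 2 from 152780668 to 152831728 on the minus strand), measured 78.4 and 72.5 FPKM in EGFP+ and 37.5 and 35.8 FPKM in EGFP- cells at E11.5, for a log2 fold change of 1.02 (SE 0.14, limma adjusted p = 3.09e-05). Both EGFP+ libraries stood well above both EGFP- libraries. At E13.5 the levels were 55.1 and 52.02 against 40.8 and 42.8 FPKM, a difference of 0.35 (SE 0.14, limma adjusted p = 0.0351) that was lost without any 1 of the 4 libraries of that stage (0.31 to 0.39, adjusted p from 0.0544 to 0.144). At E15.5 they were 65.9 and 53.8 against 51.4 and 49.8 FPKM and the difference was not called, except higher with median-of-ratios scaling (0.44, adjusted p = 0.0205). The difference fell by 0.79 from E11.5 to E15.5 (SE 0.19, limma adjusted p = 0.00453). *Bcl2*, the founding member of the family, went the other way: at E11.5 it measured 2.46 and 2.45 FPKM in EGFP+ and 3.202 and 2.72 FPKM in EGFP- cells, and at E15.5 7.203 and 6.62 against 4.05 and 2.18 FPKM. It was called higher at E13.5 and at E15.5, where the log2 fold change was 0.98 (SE 0.21, limma adjusted p = 0.00233) and 0.65 without EGFP- replicate 2. The E13.5 call was lost without EGFP+ replicate 2, EGFP- replicate 1 or EGFP- replicate 2 of that stage (0.42, 0.53 and 0.60, adjusted p = 0.18, 0.111 and 0.0678).

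Among the pore formers *Bak1* and *Bok* were unlike. *Bak1* (chromosome 17 from 27019810 to 27029009 on the minus strand) measured 4.401 and 5.63 FPKM in EGFP+ against 20.6 and 18.97 FPKM in EGFP- cells at E11.5, for a log2 fold change of -1.80 (SE 0.20, limma adjusted p = 8.13e-06). At E13.5 it measured 3.3 and 3.37 against 9.36 and 7.08 FPKM, a difference of -1.08 (SE 0.20, limma adjusted p = 0.000502). The groups were apart at both stages, and at E15.5 they came close, with 4.91 and 5.095 against 8.08 and 5.49 FPKM and no call (called without EGFP- replicate 2, -0.60, adjusted p = 0.0363). The level in EGFP+ cells was about the same at E11.5 and E15.5, a log2 change of 0.00, while that in EGFP- cells fell by 1.44 (SE 0.20, limma adjusted p = 3.39e-05). *Bak1* shares exon sequence with *Ggnbp1* on the opposite strand, whose reads cannot be told apart where the strand is not recorded. *Bok*, at 9.62 and 9.14 FPKM in EGFP+ cells at E11.5 and 27.6 and 22.9 FPKM at E15.5, rose with stage in both populations and was called only at E13.5, higher, a call that was lost without EGFP+ replicate 1 or EGFP- replicate 2 (0.31 and 0.32, adjusted p = 0.242 and 0.203). With the pairs as a block *Bok* was also lower at E11.5 (-0.33, adjusted p = 0.0126).

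*Bbc3*, the gene of the BH3-only protein PUMA (chromosome 7 from 16308393 to 16318205 on the plus strand), was higher in EGFP+ cells at all 3 stages and rose in both populations. It measured 7.92 and 6.42 FPKM in EGFP+ against 3.63 and 2.81 FPKM in EGFP- cells at E11.5. At E13.5 the values were 6.696 and 6.43 against 2.26 and 2.64 FPKM, and at E15.5 22.5 and 15.7 against 9.15 and 6.29 FPKM. The groups did not overlap at any stage, and the log2 fold changes were 0.95 (SE 0.22, limma adjusted p = 0.00166), 1.13 (SE 0.22, limma adjusted p = 0.000675) and 1.21 (SE 0.22, limma adjusted p = 0.000744). From E11.5 to E15.5 the log2 change was 1.29 in EGFP+ and 1.03 in EGFP- cells (limma adjusted p = 0.000231 and 0.000847), and the change of the difference was not called (0.25, adjusted p = 0.491). *Pmaip1*, the gene of NOXA, behaved differently. It stood at 1.08 and 0.685 FPKM in EGFP+ and 2.19 and 2.68 FPKM in EGFP- cells at E11.5, and at 0.701 and 0.813 against 0.323 and 0.333 FPKM at E15.5, the higher call there being lost without any 1 of the 4 E15.5 libraries (adjusted p from 0.0523 to 0.106). *Bid*, cut by caspase-8 to link death receptors to mitochondria, ranged from 3.73 to 9.68 FPKM and was called higher at E13.5, a call lost without any 1 of 7 libraries, the 4 of E11.5, E13.5 EGFP+ replicate 1 and both of E13.5 EGFP- (adjusted p from 0.0537 to 0.257). At E11.5 *Bid* was called, lower, with the block, on the compared groups alone and without the mean trend (-0.35, adjusted p = 0.0473, 0.0382 and 0.0458). *Bad* measured between 9.86 and 21.5 FPKM and rose with stage in both populations, in EGFP+ cells not without E11.5 replicate 1 or 2 or E15.5 replicate 1 (0.52, 0.51 and 0.35, adjusted p = 0.0808, 0.0911 and 0.186).

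*Bcl2l12*, an atypical family member (chromosome 7 from 44991222 to 44998712 on the minus strand), had the largest negative log2 fold change of the 39 at E11.5 and E13.5. It measured 2.68 and 2.82 FPKM in EGFP+ against 17.1 and 17.8 FPKM in EGFP- cells at E11.5, 1.05 and 0.561 against 9.4997 and 7.37 FPKM at E13.5, and 0.636 and 0.2301 against 5.83 and 2.03 FPKM at E15.5. It fell with stage in both populations, and EGFP+ cells stayed below EGFP- cells throughout. The log2 fold changes were -2.30 (SE 0.31, limma adjusted p = 3.73e-05), -2.39 (SE 0.31, limma adjusted p = 5.20e-05) and -1.68 (SE 0.31, limma adjusted p = 0.000880), the last being -1.10 without EGFP- replicate 1 and -2.85 with a pseudocount of 0.1. Its exons overlap those of *Irf3* on the opposite strand.

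**Figure D2:**
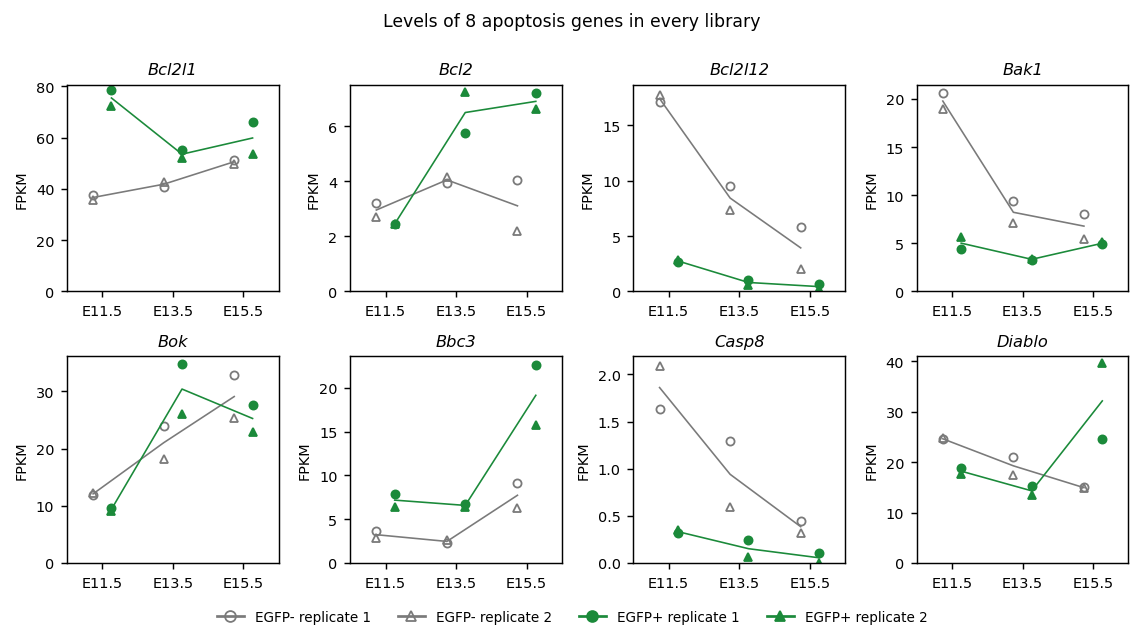
FPKM of 8 apoptosis genes by stage in each library (grey open symbols, EGFP-; green filled symbols, EGFP+; circle and triangle, replicates 1 and 2; lines join group means, linear axes from 0). *Bbc3* is higher in EGFP+ cells at all stages and *Bcl2l12* lower, *Bcl2l1* and *Bak1* are farther apart at E11.5 than at E15.5, and *Diablo* is higher in EGFP+ cells at E15.5, with 24.6 and 39.6 FPKM in EGFP+ cells.

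*Casp8* and its partner gene *Casp8ap2* were lower in EGFP+ cells at E11.5 and E13.5, and *Casp6* at E13.5 and E15.5. *Casp8*, the initiator caspase of death receptors (chromosome 1 from 58795374 to 58847503 on the plus strand), was weakly expressed, at 0.315 and 0.348 FPKM in EGFP+ against 1.64 and 2.09 FPKM in EGFP- cells at E11.5, for a log2 fold change of -1.10 (SE 0.16, limma adjusted p = 7.12e-05). At E13.5 it measured 0.243 and 0.0592 against 1.29 and 0.591 FPKM, a difference of -0.73 (SE 0.16, limma adjusted p = 0.00174), or -0.47 without EGFP- replicate 1. The groups did not overlap, and with a pseudocount of 0.1 both differences were larger, at -2.17 and -2.07. At E15.5 it stood at 0.109 FPKM and was listed at 0 in the EGFP+ libraries, against 0.448 and 0.3201 FPKM, and was not called (adjusted p = 0.0580, and 0.0128 with the pairs as a block). With a pseudocount of 0.1 the E15.5 difference was called (-1.73, adjusted p = 0.00708), as it was with median-of-ratios scaling and on the compared groups alone (adjusted p = 0.0477 and 0.0240). *Casp8ap2*, the gene of the caspase-8 partner FLASH, which also serves histone mRNA processing, measured 9.37 and 9.67 FPKM against 20.96 and 18.9 FPKM at E11.5 and was lower at E11.5 and E13.5.

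*Casp6*, an effector caspase gene, with 11.8 and 11.7 against 14.2 and 13.508 FPKM at E11.5 and 4.26 and 2.79 against 7.56 and 5.896 FPKM at E15.5, was lower at E13.5 and E15.5. The first of these calls was lost without EGFP+ replicate 2 or EGFP- replicate 1 (-0.43 and -0.41, adjusted p = 0.148 and 0.155), and so was the second (-0.55 and -0.63, adjusted p = 0.0602 and 0.0512). Over time *Casp6* and *Casp8ap2* fell in both populations, and *Casp8* fell in EGFP- cells, its log2 change of -0.34 in EGFP+ cells not being called (limma adjusted p = 0.0788). With a pseudocount of 0.1 that change was called (-1.58, adjusted p = 0.00823), and so it was on the compared groups alone (adjusted p = 0.00859).

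*Diablo*, whose product SMAC leaves the mitochondria and blocks inhibitors of apoptosis (chromosome 5 from 123509765 to 123524176 on the minus strand), was called higher in EGFP+ cells at the last stage alone. It measured 18.8 and 17.6 FPKM in EGFP+ and 24.6 and 24.7 FPKM in EGFP- cells at E11.5 and 15.2 and 13.4 against 21.1 and 17.4 FPKM at E13.5, neither called (-0.42 and -0.40, adjusted p = 0.0675 and 0.0807, and 0.0217 and 0.0269 with the pairs as a block). At E15.5 it measured 24.6 and 39.6 against 15.1 and 14.8 FPKM, a log2 fold change of 1.02 (SE 0.20, limma adjusted p = 0.00106). Both EGFP+ libraries stood above both EGFP- libraries, and they differed from each other, replicate 2 being the one with the larger sum of Cajal-Retzius markers, whose part in the result was not tested. *Diablo* fell in EGFP- cells and rose in EGFP+ cells, where without E15.5 replicate 2 the rise was 0.42 and not called (adjusted p = 0.0555). It shares exon sequence with *B3gnt4* on the opposite strand and with *Gm49027* on the same strand, so that its reads may be shared and its level is uncertain. *Xiap*, the caspase inhibitor that SMAC binds, measured 8.75 and 8.19 against 16.5 and 14.3 FPKM at E11.5 and 6.05 and 8.91 against 7.74 and 8.52 FPKM at E15.5. It was lower in EGFP+ cells at E11.5 and at E13.5, the latter not with median-of-ratios scaling (-0.42, adjusted p = 0.0581).

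Of the 6 genes named for p53 or acting on it, 4 were higher and 1 lower at E11.5 (36.8% and 44.9% of all listed genes), 3 higher and 1 lower at E13.5 (32.1% and 43.5%), and 1 each at E15.5 (25.8% and 31.6%). *Trp53inp1* (chromosome 4 from 11156431 to 11174379 on the plus strand), a p53 target whose product supports p53 activity and autophagy, had the largest positive difference of all members at E11.5. It measured 39.9 and 35.1 FPKM in EGFP+ and 8.62 and 10.1 FPKM in EGFP- cells, a log2 fold change of 1.90 (SE 0.16, limma adjusted p = 1.13e-06). By E13.5 it stood at 25.1 and 20.02 against 16.9 and 18.5 FPKM and at E15.5 at 10.2 and 9.49 against 10.7 and 11.4 FPKM. The gap of the first stage was gone at the last, where EGFP+ libraries lay just under the EGFP- ones and no call was made. It was called at E13.5 with median-of-ratios scaling (0.62, adjusted p = 0.00407) and without EGFP+ replicate 2 (0.48, adjusted p = 0.0430). The fall within EGFP+ cells was -1.82 (SE 0.16, limma adjusted p = 1.31e-06).

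Its paralog *Trp53inp2* (chromosome 2 from 155381059 to 155389850 on the plus strand), an autophagy gene, had the same order of levels. It measured 93.2 and 83.6 FPKM in EGFP+ and 25.2 and 26.6 FPKM in EGFP- cells at E11.5, 54.6 and 52.3 against 32.5 and 38.2 FPKM at E13.5, and 48.1 and 39.03 against 48.2 and 49.1 FPKM at E15.5. The log2 fold changes were 1.73 (SE 0.15, limma adjusted p = 1.30e-06) and 0.59 (SE 0.15, limma adjusted p = 0.00333) at the first stages, and at E15.5 no call was made. *Trp53i11* (chromosome 2 from 93187548 to 93201759 on the plus strand), a p53-induced gene, was the most abundant member. It measured 185 and 152 against 48.6 and 48.998 FPKM at E11.5, 100.3 and 99.1 against 65.8 and 73.9 FPKM at E13.5 and 125 and 123 against 91.2 and 99.96 FPKM at E15.5. EGFP+ libraries were above EGFP- libraries each time, by 1.76 (SE 0.14, limma adjusted p = 1.02e-06), 0.51 (SE 0.14, limma adjusted p = 0.00627) and 0.37 (SE 0.14, limma adjusted p = 0.0391). The E15.5 call was lost when any 1 of 8 libraries was left out, the 4 of E15.5, the EGFP+ pair of E13.5 and the EGFP- pair of E11.5 (0.31 to 0.44, adjusted p from 0.0540 to 0.184).

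*Trp53bp1* (chromosome 2 from 121193281 to 121271407 on the minus strand), the gene of the double-strand break repair protein 53BP1, measured 90.5 and 91.6 FPKM in EGFP+ and 44.7 and 45.1 FPKM in EGFP- cells at E11.5, for a log2 fold change of 1.00 (SE 0.13, limma adjusted p = 2.36e-05). At E13.5 the values were 59.2 and 57.3 against 42.1 and 46.3 FPKM and at E15.5 44.05 and 46.02 against 37.1 and 43.2 FPKM. No change with stage was called in EGFP- cells, and the EGFP+ libraries came down to just above them. The E13.5 call (0.39) was lost without EGFP+ replicate 1, EGFP+ replicate 2 or EGFP- replicate 1 (0.33 to 0.41, adjusted p from 0.0541 to 0.0794). Its exons overlap *Tubgcp4* on the opposite strand. *Trp53i13* (chromosome 11 from 77508099 to 77515980 on the minus strand) was the exception in direction, with 2.27 and 2.12 against 7.33 and 6.598 FPKM at E11.5 and 2.42 and 1.63 against 6.31 and 4.09 FPKM at E13.5. EGFP+ cells were lower, with log2 fold changes of -1.32 (SE 0.25, limma adjusted p = 0.000408) and -1.02 (SE 0.25, limma adjusted p = 0.00294). At E15.5 it measured 2.66 and 1.905 against 5.07 and 2.901 FPKM and was not called (adjusted p = 0.0647, and 0.00445 with the pairs as a block). *Trp53i13* overlaps *Abhd15* on the opposite strand.

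*Mdm2*, the ubiquitin ligase and p53 target shown above, measured 32.6 and 29.2 FPKM in EGFP+ and 23.6 and 26.1 FPKM in EGFP- cells at E11.5, and 11.503 and 11.6 against 16.7 and 14.96 FPKM at E15.5. It fell in both populations with stage. At E11.5 it was called, higher, only with the block, with median-of-ratios scaling or in the fit of the compared groups (adjusted p = 0.0303, 0.00284 and 0.0406). The lower call at E15.5 was lost with median-of-ratios scaling (-0.23, adjusted p = 0.176) and without EGFP+ replicate 1, EGFP+ replicate 2 or EGFP- replicate 1 (-0.42, -0.42 and -0.35, adjusted p = 0.0965, 0.0884 and 0.161). For comparison, *Cdkn1a* (p21), the classical p53 target in growth arrest, had log2 fold changes of 3.79, 1.61 and 1.79 at the 3 stages, and *Trp73*, the p53 paralog that marks Cajal-Retzius cells, 4.25, 3.51 and 5.03 (limma adjusted p at most 0.00124 for these 6 differences).

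**Figure D3:**
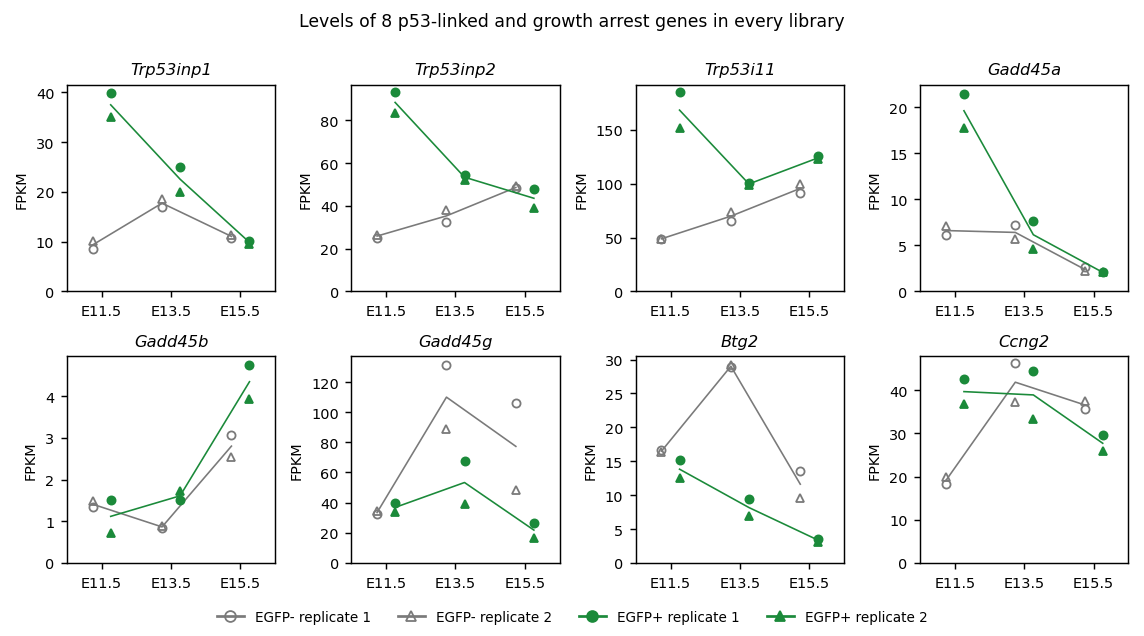
FPKM of 8 p53-linked and growth arrest genes by stage in each library (symbols as before: grey open EGFP-, green filled EGFP+, circle and triangle for replicates 1 and 2, lines through group means, linear axes from 0). *Trp53inp1*, *Trp53inp2* and *Gadd45a* are high in EGFP+ cells at E11.5 and near the EGFP- level at E15.5, while *Gadd45g* and *Btg2* part later, with EGFP+ cells lower.

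Of the 7 stress and growth arrest genes 4 were higher and none lower at E11.5 (36.8% and 44.9% of all listed genes). At E13.5, 1 was higher and 2 lower (32.1% and 43.5%), and at E15.5, 2 were higher and 2 lower (25.8% and 31.6%). This was not tested as a pattern of the group. The Gadd45 proteins bind stress kinases, PCNA and cyclin-dependent kinase 1, and their 3 genes did not move together. *Gadd45a* (chromosome 6 from 67035096 to 67037457 on the minus strand) measured 21.5 and 17.8 FPKM in EGFP+ and 6.16 and 7.06 FPKM in EGFP- cells at E11.5, for a log2 fold change of 1.44 (SE 0.22, limma adjusted p = 7.79e-05). At E13.5 it measured 7.69 and 4.63 against 7.18 and 5.65 FPKM and at E15.5 2.07 and 2.07 against 2.62 and 2.17 FPKM, with no call at either stage. A difference was called at the first stage alone, although the E15.5 groups did not overlap either, and the fall in EGFP+ cells, -2.74 (SE 0.22, limma adjusted p = 7.73e-07), was the largest change with stage among the members. *Gadd45a* overlaps *E230016M11Rik* on the opposite strand.

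*Gadd45g* (chromosome 13 from 51846678 to 51848468 on the plus strand) had no difference called at E11.5, with 40.1 and 33.6 against 32.3 and 34.5 FPKM. At E13.5 it measured 67.5 and 39.1 against 131 and 88.7 FPKM and at E15.5 26.7 and 16.9 against 106 and 48.4 FPKM. EGFP+ cells were below EGFP- cells at both later stages, with log2 fold changes of -1.05 (SE 0.36, limma adjusted p = 0.0185) and -1.71 (SE 0.36, limma adjusted p = 0.00179). The EGFP- libraries of E15.5 lay far apart. The E13.5 call was lost without EGFP+ replicate 2 or EGFP- replicate 1 (-0.67 and -0.77, adjusted p = 0.168 and 0.143). *Gadd45b* was the least abundant of the family, 1.51 and 0.718 FPKM in EGFP+ and 1.33 and 1.48 FPKM in EGFP- cells at E11.5 and 4.75 and 3.94 against 3.07 and 2.53 FPKM at E15.5. At E11.5 it was called, lower, without EGFP+ replicate 1 (-0.49, adjusted p = 0.0364). It rose in both populations and was called higher at E13.5 and E15.5, calls lost without any 1 of the 4 E13.5 libraries (adjusted p from 0.0604 to 0.13) and without EGFP+ replicate 1 or EGFP- replicate 2 of E15.5 or an E11.5 EGFP- library (adjusted p from 0.0538 to 0.179).

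*Btg2* (chromosome 1 from 134075170 to 134079120 on the minus strand), an antiproliferative gene that marks neurogenic divisions of cortical progenitors, measured 15.2 and 12.5 FPKM in EGFP+ and 16.6 and 16.4 FPKM in EGFP- cells at E11.5. At E13.5 the values were 9.48 and 6.86 against 28.9 and 29.2 FPKM and at E15.5 3.55 and 3.14 against 13.6 and 9.61 FPKM. The populations were close at first and apart later, with EGFP+ cells lower and log2 fold changes of -1.73 (SE 0.19, limma adjusted p = 1.93e-05) and -1.52 (SE 0.19, limma adjusted p = 6.39e-05). *Ccng2* (chromosome 5 from 93267257 to 93276231 on the plus strand), an unconventional cyclin of arrested cells, measured 42.5 and 36.9 against 18.4 and 19.8 FPKM at E11.5, for a log2 fold change of 1.02 (SE 0.17, limma adjusted p = 0.000174). At E15.5 it measured 29.6 and 25.8 against 35.7 and 37.5 FPKM, the reverse order, not called (adjusted p = 0.0681, and 0.0114 with the block). *Ccng1*, its paralog and a p53 target, was higher at E11.5 (and at E13.5 with median-of-ratios scaling, 0.50, adjusted p = 0.0289), with 17.6 and 14.4 against 9.31 and 9.296 FPKM, and at E15.5, with 12.3 and 16.6 against 6.73 and 7.41 FPKM. *Sesn1*, a stress-responsive inhibitor of mTORC1 signalling, was higher only at E11.5, with 10.98 and 15.9 against 5.77 and 7.14 FPKM. *Ccng1*, *Gadd45a* and *Sesn1* of the 4 genes with a p53 decamer in the sequences above were called higher at E11.5, and *Mdm2* was not. Of all listed genes 36.8% were called higher at that stage. *Trp53i11* and *Trp53inp2* had larger differences there (1.76 and 1.73) and no decamer in their windows. A part of the decamer in these calls was not tested.

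The genes with CDKN symbols differed in direction. *Cdkn2c* (chromosome 4 from 109660876 to 109667189 on the minus strand), which encodes the CDK4 and CDK6 inhibitor p18-INK4c, measured 1.701 and 1.42 FPKM in EGFP+ and 5.04 and 4.29 FPKM in EGFP- cells at E11.5, 1.501 and 0.542 against 7.52 and 6.05 FPKM at E13.5, and 0.397 and 0.482 against 4.24 and 2.74 FPKM at E15.5. EGFP+ cells were always the lower ones, with log2 fold changes of -1.14 (SE 0.24, limma adjusted p = 0.000767), -1.98 (SE 0.24, limma adjusted p = 2.83e-05) and -1.62 (SE 0.24, limma adjusted p = 0.000161). *Cdkn3* (chromosome 14 from 46760541 to 46771669 on the plus strand), a phosphatase that acts on cyclin-dependent kinases in dividing cells, measured 2.05 and 2.77 against 6.67 and 7.01 FPKM, 1.18 and 0.547 against 4.69 and 3.61 FPKM and 0.403 and 0.349 against 2.47 and 1.59 FPKM. Its log2 fold changes were -1.21 (SE 0.21, limma adjusted p = 0.000224), -1.48 (SE 0.21, limma adjusted p = 8.53e-05) and -1.12 (SE 0.21, limma adjusted p = 0.000895). With a pseudocount of 0.1 the E15.5 values were -2.71 for *Cdkn2c* and -2.13 for *Cdkn3*. The groups of both genes were apart at every stage, in the same direction as the sums of cell cycle and radial glia genes given above. The sums of interneuron, meningeal and erythroid markers were also lower in EGFP+ cells at every stage. The part of any of these markers in the differences was not tested. *Cdkn1c*, the gene of p57-KIP2, which promotes exit from the cell cycle, was higher in EGFP+ cells at E11.5 and E13.5 (108 and 93.6 against 57.8 and 55.8 FPKM at E11.5). At E15.5 it measured 56.5 and 43.5 against 58.7 and 39.03 FPKM. *Cdkn2aip*, which regulates the ARF-p53 pathway, ranged from 7.16 to 16.5 FPKM and was called lower at E15.5, a call lost without EGFP+ replicate 1 or EGFP- replicate 1 (-0.55 and -0.56, adjusted p = 0.0627 and 0.0597). With the pairs as a block it was also higher at E11.5 (0.32, adjusted p = 0.0428) and lower at E13.5 (-0.38, adjusted p = 0.0216), and with median-of-ratios scaling higher at E11.5 (0.56, adjusted p = 0.00719). Without E13.5 EGFP+ replicate 1 the E13.5 value was -0.61, adjusted p = 0.0161.

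The 3 TNF receptor genes had 3 different courses. *Tnfrsf19* (chromosome 14 from 60963875 to 61046490 on the minus strand), the gene of TROY, a receptor of neural progenitors and glia, measured 9.55 and 10.2 FPKM in EGFP+ and 44.96 and 38.7 FPKM in EGFP- cells at E11.5, for a log2 fold change of -1.98 (SE 0.22, limma adjusted p = 9.37e-06). At E13.5 it measured 11.4 and 13.4 against 25.04 and 17.6 FPKM and at E15.5 16.4 and 21.96 against 13.4 and 8.77 FPKM. EGFP- libraries were above EGFP+ libraries at both earlier stages and below them at the last. The later differences were -0.71 (SE 0.22, limma adjusted p = 0.0127) and 0.75 (SE 0.22, limma adjusted p = 0.0133). The E13.5 call was lost with median-of-ratios scaling (-0.42, adjusted p = 0.0910) and without EGFP+ replicate 1 or EGFP- replicate 1 (-0.61 and -0.47, adjusted p = 0.0762 and 0.125). The E15.5 call was lost without EGFP+ replicate 2 or EGFP- replicate 2 (0.55 and 0.47, adjusted p = 0.106 and 0.114). The change of the difference, 2.73 (SE 0.32, limma adjusted p = 4.68e-05), was kept in every setting and was the largest among the members with a pseudocount of 1, while with 0.1 that of *Ripk4* was larger (3.73).

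*Tnfrsf21* (chromosome 17 from 43016555 to 43089189 on the plus strand), the gene of death receptor 6, which takes part in axon pruning and neuron death, measured 20.2 and 19.2 FPKM in EGFP+ and 10.5 and 7.92 FPKM in EGFP- cells at E11.5. At E13.5 the values were 19.9 and 16.5 against 11.8 and 12.5 FPKM and at E15.5 27.2 and 30.8 against 15.6 and 16.1 FPKM. EGFP+ libraries were the higher ones throughout, by 1.03 (SE 0.16, limma adjusted p = 9.88e-05), 0.54 (SE 0.16, limma adjusted p = 0.00956) and 0.83 (SE 0.16, limma adjusted p = 0.00114), the E13.5 call being lost without EGFP+ replicate 1 (0.42, adjusted p = 0.0840). *Tnfrsf22* (chromosome 7 from 143634806 to 143649661 on the minus strand), a decoy receptor for TRAIL, was above 1 FPKM only in EGFP- cells at E11.5, with 2.55 and 2.699 FPKM against 0.442 and 0.489 FPKM in EGFP+ cells. The log2 fold change was -1.31 (SE 0.11, limma adjusted p = 1.37e-06), and -2.27 with a pseudocount of 0.1. The smaller E13.5 difference (-0.34) was lost without EGFP+ replicate 2 or EGFP- replicate 1 (-0.28 and -0.25, adjusted p = 0.106 and 0.103), and at E15.5 the values were 0.282 and 0.293 against 0.416 and 0.304 FPKM. *Tnfrsf22* has a close paralog beside it in the genome, so its reads may be shared and its level is uncertain.

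Of the adaptors, *Traf4* (chromosome 11 from 78158499 to 78165589 on the minus strand), a TRAF protein of embryonic neural tissue, measured 98.5 and 84.4 FPKM in EGFP+ and 37.6 and 33.8 FPKM in EGFP- cells at E11.5, for a log2 fold change of 1.33 (SE 0.15, limma adjusted p = 8.18e-06). The values were 65.96 and 56.9 against 53.5 and 51.2 FPKM at E13.5 and 52.6 and 43.7 against 50.2 and 49.2 FPKM at E15.5. The EGFP+ libraries came down to the EGFP- level, and neither later stage was called, except E13.5 with median-of-ratios scaling (0.53, adjusted p = 0.00589). *Ripk4* (chromosome 16 from 97741933 to 97763787 on the minus strand), a kinase known for epidermal differentiation, stood at no more than 0.362 FPKM outside the E15.5 EGFP+ libraries. These measured 1.98 and 3.92 FPKM, against 0.164 and 0.102 FPKM in E15.5 EGFP- cells, a log2 fold change of 1.76 (SE 0.18, limma adjusted p = 1.36e-05) and of 3.65 with a pseudocount of 0.1. Replicate 2, with the larger sum of Cajal-Retzius markers, had the higher value. Of the other members called higher at E15.5, *Ccng1*, *Diablo*, *Pmaip1*, *Tnfrsf19* and *Tnfrsf21* also had the higher EGFP+ value in replicate 2. *Bcl2*, *Gadd45b*, *Trp53i11* and *Bbc3* had it in replicate 1 (*Bbc3* 22.5 and 15.7 FPKM in replicates 1 and 2). The part of the markers in this was not tested.

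**Figure D4:**
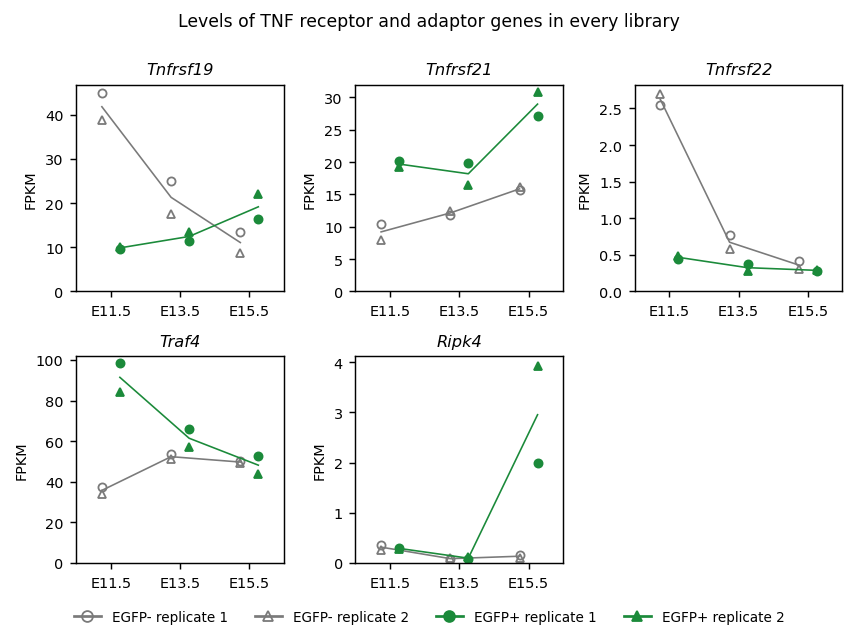
FPKM of 3 TNF receptor and 2 adaptor genes by stage in each library (grey open EGFP-, green filled EGFP+, circle and triangle for replicates 1 and 2, lines through group means, linear axes from 0). *Tnfrsf19* crosses between E13.5 and E15.5, *Tnfrsf21* stays higher in EGFP+ cells, and *Ripk4* stands out in the E15.5 EGFP+ libraries (1.98 and 3.92 FPKM).

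From E11.5 to E15.5, 10 members rose and 19 fell in EGFP+ cells, against 33.3% and 42.1% of all listed genes. In EGFP- cells 14 rose and 17 fell, against 37.7% and 47.6%. The median log2 change was -0.34 in EGFP+ cells (-0.18 for all genes) and -0.24 in EGFP- cells (-0.32 for all genes), and median-of-ratios scaling raised the median of all genes by 0.14 and 0.22. By direction, 6 members rose and 9 fell in both populations, 5 fell in EGFP+ and rose in EGFP- cells (*Bcl2l1*, *Ccng2*, *Traf4*, *Trp53i11* and *Trp53inp2*), and *Diablo* and *Tnfrsf19* did the opposite. Of all listed genes 24.6% rose and 32.7% fell in both populations, 3.93% fell in EGFP+ and rose in EGFP- cells, and 2.88% did the opposite. Of these opposed changes, the fall of *Bcl2l1*, *Ccng2* and *Trp53i11* in EGFP+ cells and that of *Diablo* in EGFP- cells were not called with median-of-ratios scaling (-0.09, -0.26, -0.19 and -0.40, adjusted p = 0.559, 0.148, 0.322 and 0.0790). The falls of *Bcl2l1*, *Ccng2* and *Trp53i11* in EGFP+ cells were also lost without E15.5 EGFP+ replicate 2 (-0.19, -0.41 and -0.41, adjusted p = 0.285, 0.107 and 0.0576) or without E11.5 EGFP+ replicate 1 (-0.28, -0.40 and -0.29, adjusted p = 0.177, 0.122 and 0.144). That of *Bcl2l1* was lost without any library but those of E13.5 EGFP- and E15.5 EGFP+ replicate 1. Without E11.5 EGFP- replicate 2 the rise of *Traf4* in EGFP- cells was not called (0.39, adjusted p = 0.0749).

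The difference between the populations itself rose from E11.5 to E15.5 for 11 members and fell for 15, against 32.0% and 27.7% of all listed genes. It fell for 5 of the 6 p53 regulators and partners (all but *Trp53i13*). It also fell for 5 of the 7 stress and growth arrest genes (*Btg2*, *Ccng2*, *Gadd45a*, *Gadd45g* and *Sesn1*). It rose for *Diablo*, *Xiap*, *Bak1*, *Bcl2*, *Tnfrsf19*, *Tnfrsf22* and *Ripk4* among others. The median was -0.15 for the members and 0.17 for all listed genes. The rise for *Xiap* was 0.66 (limma adjusted p = 0.0429) and was lost with median-of-ratios scaling, with a pseudocount of 0.1 and without any 1 of 9 libraries, all but those of E13.5 EGFP- and E15.5 EGFP+ replicate 1 (0.42 to 0.76, adjusted p from 0.0533 to 0.172). The fall for *Mdm2* was lost without E11.5 EGFP+ replicate 1 (-0.64, adjusted p = 0.0538). The rises for *Casp8*, *Casp8ap2* and *Gadd45b* and the fall for *Cdkn1c* were each lost without any 1 of 4 or 5 libraries (adjusted p from 0.0543 to 0.161). For *Casp8ap2* these were both of E11.5 EGFP+, E11.5 EGFP- replicate 1, E15.5 EGFP+ replicate 2 and E15.5 EGFP- replicate 1. For *Cdkn1c* they were E11.5 EGFP+ replicate 1, both of E11.5 EGFP-, E15.5 EGFP+ replicate 2 and E15.5 EGFP- replicate 1. For *Gadd45b* they were E11.5 EGFP+ replicate 2, both of E11.5 EGFP-, E15.5 EGFP+ replicate 1 and E15.5 EGFP- replicate 2.

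**Figure D5:**
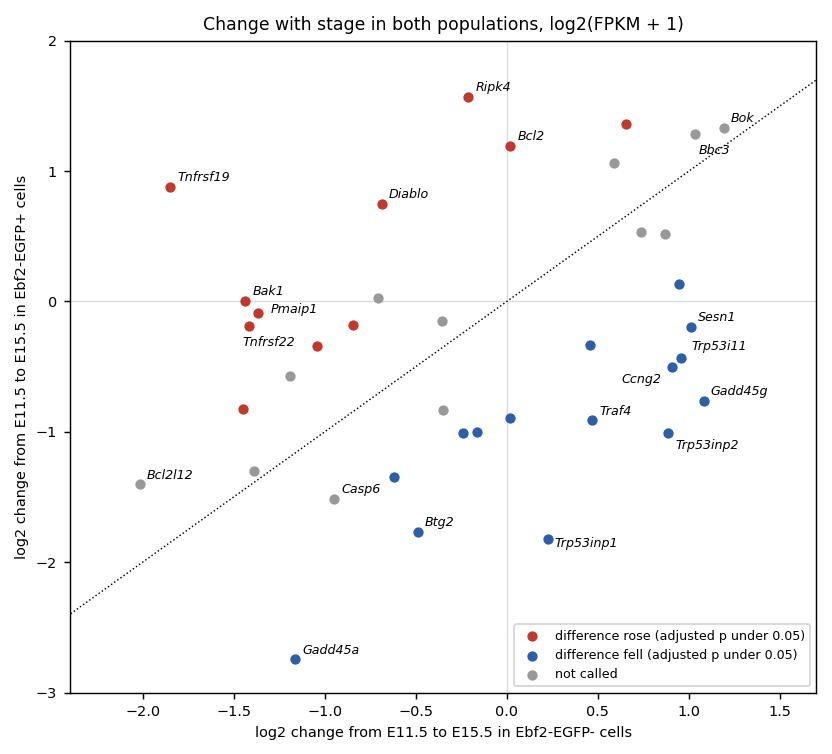
Log2 change from E11.5 to E15.5 on log2(FPKM + 1) in EGFP- cells (x axis) and EGFP+ cells (y axis) for the members, 2 libraries a group. The dotted line marks equal change; 11 members (red) lie above it and 15 (blue) below it with a limma adjusted p under 0.05 for the difference, *Tnfrsf19* at 2.73 and *Trp53inp1* at -2.05 being the farthest.

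Other genes of both pathways were taken from fixed lists. Of 46 other p53 targets and regulators, 19 were in the table, of which 7 were higher and 9 lower at E11.5 (36.8% and 44.9% of all listed genes), 7 higher and 10 lower at E13.5 (32.1% and 43.5%), and 8 higher and 9 lower at the last stage (25.8% and 31.6%). The list includes *Cdkn1a* and *Trp73*, both higher at each stage. Those higher at E11.5 included *Plk2* (1.59) and *Plk3* (1.22), stress kinases, *Perp* (1.13), a p53 effector at membranes, and *Ppp1r13b* (1.41), a p53 cofactor. Those lower included the checkpoint kinase genes *Chek1* (-2.21) and *Chek2* (-1.49), which act upstream of p53 in replicating cells. Other genes of the list were lower too: *Thbs1* (-2.18), *Ckap2* (-1.58), *Psrc1* (-1.12), *Igfbp3* (-1.05), *Gtse1* (-1.01), *Siah1b* (-0.94) and *Atr* (-0.86). Of 43 other apoptosis genes, 11 were in the table, with 2 higher and 6 lower at E11.5, 3 higher and 5 lower at E13.5, and 2 higher and 4 lower at the last stage, beside the same shares of all genes. The BH3-only gene *Hrk* was higher at all stages (0.43 at E13.5, and at the others 0.59 and 0.78), and the death receptor adaptor gene *Fadd* lower (-0.93 at E13.5, and -1.24 and -0.76). The median log2 fold changes of the p53 list were -0.59, -0.63 and 0.23 at the 3 stages and those of the apoptosis list -0.67, -0.45 and -0.23, against -0.19, -0.19 and -0.11 for all listed genes. *Bmf*, also BH3-only, was higher at E11.5 (0.79) and lower at E13.5 (-0.63) and E15.5 (-1.30). *Birc5*, a mitotic gene, was lower at all 3 stages (-1.64, -2.39 and -2.42).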

How the data were processed

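RNA of FACS-sorted cells was captured with oligo-dT, made into libraries with a NEBNext kit and sequenced paired-end on an Illumina HiSeq. The authors aligned reads to mm10 with TopHat2 2.0.8b, took FPKM from Cufflinks 2.2.0 with UCSC coding genes, tested with Cuffdiff and deposited FPKM per library for the genes they reported as differential. Percentages of calls and adjusted p-values therefore describe that list, which was picked from the same libraries. Whether strand was used is not given in the sources used here. Columns of the authors' own folds and p-values and a table of lncRNA transcripts, none a member, were not used. Every per-library column matched a sample. FPKM cannot be turned back into counts, so the counting error of each value is unknown.

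Log2(FPKM + 1) of all 4859 genes was fitted as 6 groups with limma 3.58.1 (R 4.3.3, mean trend, two-sided moderated test), with Benjamini-Hochberg adjustment over all genes in each of 6 comparisons and calls at 0.05. In any sentence, adjusted p is limma's. The study calls the 2 libraries of a group biological replicates from separate cell preparations, each of pooled embryos, and the labels do not give litters, so p-values measure the spread between these preparations. Libraries with the same number deviated together (correlations of deviations from group means 0.43, 0.53 and 0.43 at the 3 stages). They were taken as pairs within a stage for a fit with a replicate block. For the changes with stage within a population, the block was instead 1 term for the replicate number over all stages. Alternatives were a pseudocount of 0.1, a mean of at least 1 FPKM (4462 genes, 35 members), median-of-ratios scaling (size factors 0.841 to 1.27 over 4711 genes), no trend, compared groups only, a 2-fold requirement, the block, and leaving out each library. Scripts were tested on simulated data. Members and lists were chosen with earlier results of these data known. Members with a call and an absolute log2 fold change of at least 1 in any comparison of the populations (23 of 39) are given with their values in every library, and the others by ranges and counts, or with values where they are paralogs of those 23 or define a family. An item withheld from this text is not reported here by name, in values or in the plots, but stays in counts over all members. Genes named from the pathway lists were picked after their values were seen. Promoter windows came from RefSeq (GRCm38.p6) and gene positions from GENCODE M21 (GRCm38, the mm10 build). Sums were made with Python 3.11.15.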

Additional observations from a re-analysis of the deposited data

Results flagged for a closer look

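For 16 members that are described with all their values, limma's interaction contrast called a change of the difference between EGFP+ and EGFP- cells over the span from E11.5 to E15.5. Values are the log2 change of that difference. It fell for *Trp53inp1* (-2.05), *Trp53inp2* (-1.89), *Gadd45g* (-1.84), *Gadd45a* (-1.58), *Ccng2* (-1.41), *Trp53i11* (-1.38), *Traf4* (-1.38), *Btg2* (-1.28), *Trp53bp1* (-0.84) and *Bcl2l1* (-0.79). In all of these but *Gadd45g* and *Btg2* the EGFP+ cells were the higher ones at E11.5. It rose for *Tnfrsf19* (2.73), *Ripk4* (1.78), *Bak1* (1.44), *Diablo* (1.44), *Tnfrsf22* (1.23) and *Casp8* (0.71). The rise for *Casp8* was lost without E11.5 EGFP+ replicate 1, E11.5 EGFP- replicate 2, E15.5 EGFP+ replicate 1 or E15.5 EGFP- replicate 2 (0.59 to 0.69, limma adjusted p from 0.0573 to 0.0734) and with a pseudocount of 0.1 (0.44, adjusted p = 0.583). Without any other library and under the other settings, except a 2-fold requirement, each of these changes was called wherever the gene was tested. The sums of Cajal-Retzius and cell cycle markers also changed between the stages in both populations, and their part in these changes was not tested.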

How the results depend on the processing

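Under the alternatives no call reversed among the 23 members whose called absolute log2 fold change reached 1 between the populations. For the calls of the 23 members with a called absolute log2 fold change of at least 1 between the populations, 1704 alternative values kept direction and call and 67 lost the call, 53 of them when 1 library was left out and 7 with median-of-ratios scaling. Requiring also a 2-fold change left 9 members higher and 8 lower at E11.5. It left 1 higher and 8 lower at E13.5, and 3 higher and 5 lower at E15.5. No share of all listed genes was worked out for this requirement. With that requirement 6 rose and 10 fell in EGFP+ cells, 4 rose and 11 fell in EGFP- cells, and the difference rose for 7 and fell for 9. The fit on compared groups only gave 7 members higher at E13.5, and 1469 of all 4859 listed genes. A mean of at least 1 FPKM leaves out the 4 lowest members, and the difference then rose for 7 members and for 1297 of 4462 genes. With the replicate pairs as a block 13 members were lower at E15.5, and 1890 of all listed genes, against 1534 without the block. No call of a member was lost under the block in any comparison. For the changes with stage within a population that block was the replicate number over all stages, not the pairs of a stage. Leaving out each library in turn gave 14 to 14 higher and 12 to 13 lower at E11.5, 5 to 11 and 10 to 16 at E13.5, and 6 to 10 and 5 to 10 at E15.5. Over time it gave 8 to 10 rising and 14 to 20 falling in EGFP+ cells, 13 to 14 and 15 to 18 in EGFP- cells, and 8 to 11 and 13 to 16 for the difference. The library left alone in its group is then assumed to vary like the others. The cause of these shifts was not tested. The counts behind each FPKM value are not known, and with 2 libraries a group a missed call does not show that levels were equal.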
